A study of Mus musculus with 2 samples.

Results

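The genes described here are 10 mouse genes whose human counterparts are linked to microcephaly, a small brain at birth: Aspm, Mcph1, Cdk5rap2, Cenpj, Wdr62, Stil, Cep152, Cep135, Nde1 and Kif11. They were chosen by name, for their roles in the centrosome, the spindle and progenitor division, with earlier results of these data known. All 10 were found among 21774 protein-coding genes of the RefSeq gene table. The histone variant H2AZ was mapped by chromatin immunoprecipitation with sequencing (ChIP-seq) in neural progenitor cells taken from brain at embryonic day 13 (E13) of the mouse strain C57BL/6. The series held 1 H2AZ library and 1 input library of the same strain, stage and cells, with no genetic change or treatment named for either, and the labels do not say how many embryos were used. The deposited data are 1 list of peaks, each with a position and a score from the authors' peak caller, so no value has a replicate check and no test was made between groups.

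Radial glia and other neural progenitors divide many times before they make neurons, and the number of these divisions helps to set the size of the cortex. Each daughter cell inherits a centrosome, which is built around a pair of centrioles, and centrosomes organise the poles of the mitotic spindle. When centriole duplication, spindle poles or spindle orientation fail, progenitors leave the cycle early or die, and the brain stays small. H2AZ replaces histone H2A in some nucleosomes and is best known for flanking the start sites of genes.

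H2AZ peaks stood at the annotated starts of 7 of the 9 members whose strand was known, and at none of their far ends. Over all protein-coding genes with an annotated start, 55.3% had a start peak and 7.29% a far-end peak. Among those as long as the members, these shares were 70.0 and 4.48%. A peak within 1 kb of either end of the gene was listed for 8 of the 10 (80.0%, 95% exact binomial interval 44.4 to 97.5%, counting error only), against 55.4% of all protein-coding genes. Wdr62, a spindle pole gene, and Kif11, which encodes a mitotic motor, had none. The members are long genes, from 29.7 to 213 kb, and among the 6641 protein-coding genes in that range 67.2% had an end peak, so the count of 8 is to be read against that share too. The interval of the members' end-peak share covers both the 55.4% and the 67.2%.

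The promoters of 6 of these genes are shown because they hold both members without a peak and, of those with a peak at the annotated start, the 2 highest-scoring and the 2 lowest-scoring. Each sequence is the 120 bases just before the start of the gene, from RefSeq (GRCm38.p6), read 5′ to 3′ on the strand of the gene. Capitals mark the CCAAT box (CCAAT, or ATTGG on the other strand) and the cell cycle homology element (TTTGAA, or TTCAAA on the other strand), both of which occur in promoters of many genes used in late cell cycle.
Cep152: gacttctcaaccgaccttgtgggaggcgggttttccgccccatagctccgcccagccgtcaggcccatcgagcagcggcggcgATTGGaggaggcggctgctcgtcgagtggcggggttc
Nde1: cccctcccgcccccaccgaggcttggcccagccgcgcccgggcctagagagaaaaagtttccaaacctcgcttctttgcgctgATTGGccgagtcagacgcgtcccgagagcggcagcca
Cenpj: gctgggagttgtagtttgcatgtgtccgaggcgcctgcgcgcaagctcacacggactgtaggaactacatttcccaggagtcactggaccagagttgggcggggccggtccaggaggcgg
Stil: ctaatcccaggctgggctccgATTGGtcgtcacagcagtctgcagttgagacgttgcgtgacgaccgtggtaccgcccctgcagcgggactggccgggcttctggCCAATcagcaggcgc
Wdr62: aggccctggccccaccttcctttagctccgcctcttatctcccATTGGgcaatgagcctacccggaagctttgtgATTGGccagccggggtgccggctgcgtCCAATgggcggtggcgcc
Kif11: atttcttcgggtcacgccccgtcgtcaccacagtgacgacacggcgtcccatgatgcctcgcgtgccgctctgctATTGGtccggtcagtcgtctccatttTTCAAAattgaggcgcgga
They lie at chr2:125625114-125625233 (minus strand), chr16:14163155-14163274 (plus), chr14:56571847-56571966 (minus), chr4:114999998-115000117 (plus), chr7:30280422-30280541 (minus) and chr19:37376262-37376381 (plus). In these bases the promoters without a peak, Wdr62 and Kif11, carry capitals as do 3 of the 4 with a peak, so the marked letters did not separate them.

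The 4 members that act in centriole assembly, Cep152, Cep135, Stil and Cenpj, each had a peak at the annotated start. The share with a start peak was 55.3% of protein-coding genes with an annotated start, and 70.0% of those in the members' length range. Scores came from the authors' peak caller; the file does not say what they measure, and they rank peaks within this list only. Among the 12060 protein-coding genes with an end peak, the median of the highest end score was 17.1 and the quartiles were 12.9 and 21.25. Cep152, the scaffold that recruits the kinase of centriole duplication, had a peak of score 23.8 (rank 1643 of 21546 peaks) at chr2:125624189-125626458, which also came within 1 kb of the far end of Shc4. Cep135, a protein of the centriole cartwheel, had one of 23.3 (rank 1806) at chr5:76587922-76589949. These scores stood at percentiles 85.9 and 84.2 of genes with an end peak, respectively.

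Stil, which helps to start a new centriole, had the lowest score of the members with a peak, 12.6 (rank 10079), at chr4:114998807-115001218. That score was at percentile 23.6 of genes with an end peak, yet the peak was the widest of the members' end peaks, 2412 bp. The Cep152 peak was 2270 bp wide and the Cep135 peak 2028 bp wide, so width and score did not follow the same order among these centriole genes. Downstream of Stil, 13019 bp past its end, the next listed peak (score 8.56) lay at the start of Tal1, a blood and endothelial transcription factor gene.

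Cenpj, which controls centriole length, was the member with a peak in its interior, and it was the only one of the 10. Over all protein-coding genes 13.8% had an interior peak, and 24.9% of those in the members' length range. The Cenpj interior peak (score 18.96, chr14:56570862-56572991, 2130 bp) spanned the annotated start of the gene, with its midpoint 80 bp from it. The gene table puts the outermost end of Cenpj 3643 bp upstream of that start, and a separate peak (score 15.5, chr14:56574544-56576394, 1851 bp) lay there. This outer peak was also within 1 kb of the start of Parp4, a neighbour on the opposite strand, and the gap between both peaks was 1.55 kb. By the end rule Cenpj thus scored 15.5 and by the start rule 18.96, and which gene the outer peak belongs to was not tested.

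Cdk5rap2, which anchors microtubule-nucleating complexes in the pericentriolar material, had a peak of score 19.9 (rank 3955) at chr4:70409341-70411349. The gene is 194 kb long and no other peak was listed inside it. The nearest peak beyond the far end was 1213 kb from the peak at the start, and 8 peak numbers of the caller's own series are missing from the list in between.

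Of the spindle genes, Aspm had a peak and Wdr62 and Kif11 did not. Aspm, which acts at spindle poles in progenitors, had a peak of score 20.98 (rank 3142) at chr1:139453933-139455854, at percentile 73.6 of genes with an end peak. That peak also came within 1 kb of the far end of Zbtb41, the neighbour upstream. On the other side the next listed peak was 789 kb away. Nde1, a regulator of the motor dynein that is needed for spindle orientation, had a peak of 23.6 (rank 1658) at chr16:14162198-14164472. It was the last in a row of 3 within a few kilobases: peaks of 978 bp (score 13.4) and 721 bp (score 11.04) had midpoints 3288 and 4355 bp upstream of the Nde1 start. Both were narrower than any end peak of the members, and both lay within 1 kb of the start of Marf1, a gene on the opposite strand, and of the microRNA gene Mir484.

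Mcph1 had the highest score of the 10, 27.9 (rank 462), at chr8:18594191-18596387. It encodes a protein that keeps chromosomes from condensing early and takes part in DNA damage signalling. The midpoint of its 2197 bp peak was 173 bp inside the lower-coordinate end, and the score stood at percentile 96.1 of genes with an end peak. No other peak was listed in the 213 kb of the gene, although another gene, Angpt2, lies inside it.

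**Figure D1:**
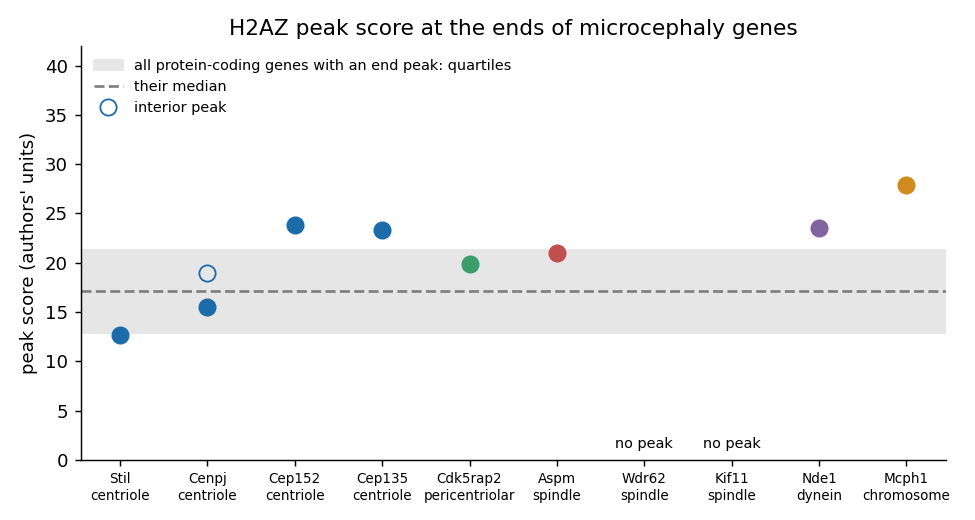
Score of the highest H2AZ peak within 1 kb of an end of each gene (filled points, coloured by role; open point, the interior peak of Cenpj), in the authors' units. The grey band and dashed line are the quartiles (12.9 and 21.25) and median (17.1) of all protein-coding genes with an end peak; 6 of the 8 genes lie above that median, and Wdr62 and Kif11 have no peak.

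In all, 6 of the 8 members with an end peak scored above the median of all such genes, Cenpj and Stil being below. The members' median was 22.1 (range 12.6 to 27.9), against 17.1 over all protein-coding genes with an end peak and 18.2 over those in the members' length range. By the start rule the median score of the 7 members with a start peak was 20.98, against 18.5 over genes in their length range. The members' end peaks had a median width of 2112 bp (1851 to 2412 bp), against 2207 bp over all genes. An end peak scoring no lower than the median peak of the list (11.9) was found at 8 of the 10 members, against 56.2% of the genes in their length range. These are descriptions of 8 values from 1 library, with no test.

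Strand and annotated starts were known for 9 of the 10 genes, all except Mcph1. A peak within 1 kb of the annotated start was listed for 7 of the 9, against 55.3% of protein-coding genes with such a start and 70.0% of those in the members' length range. No member had one within 1 kb of its far end, where the shares were 7.29 and 4.48%. All 7 start peaks spanned the start, reaching 777 to 1345 bp upstream and 924 to 1250 bp downstream of it. Their midpoints lay within 200 bp of the start in 5 of 7 genes, the exceptions being Cep135 (236 bp downstream) and Cep152 (210 bp upstream). Among 7673 genes with a single annotated start and a start peak, 97.4% of peaks spanned the start and 59.0% had the midpoint within 200 bp.

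**Figure D2:**
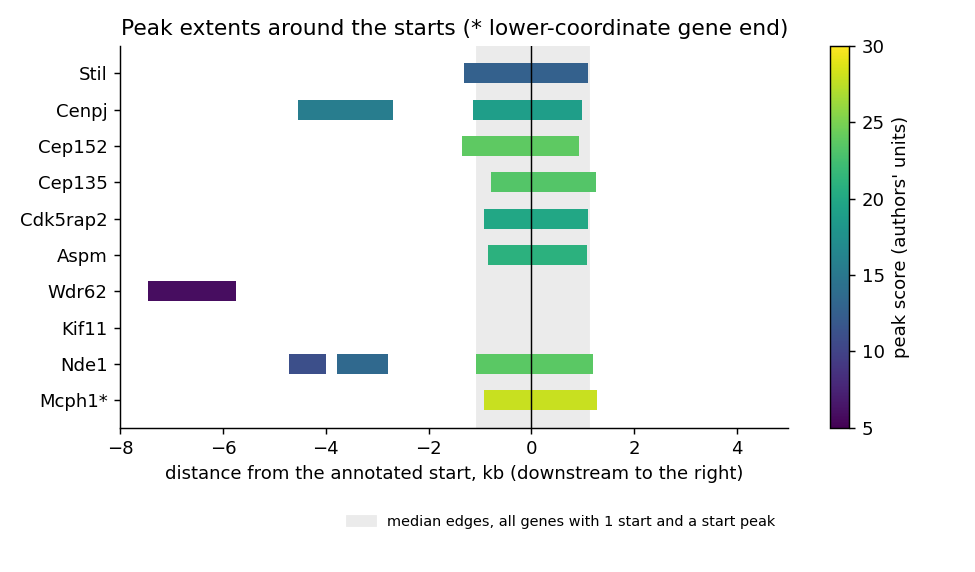
Extent of each listed peak around the annotated start of the gene, in kb, with upstream to the left and colour giving the score in the authors' units; for Mcph1 the origin is the lower-coordinate gene end. The grey band joins the median edges of start peaks over 7673 genes; the 7 start peaks cover the origin, Cenpj and Nde1 have further peaks upstream, and Wdr62 has only a low-scoring peak (5.8) whose midpoint is 6599 bp upstream.

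The members without a peak lay in unlike surroundings. Wdr62 lay among many peaks, with 20 listed within 250 kb of its start and scores from 5.8 to 29.2. The closest were a peak of score 5.8 (chr7:30286161-30287879), 4.25 kb beyond the end of the gene that carries its start, and one of 22.9 (chr7:30230771-30233481), 6.66 kb beyond the far end, at the starts of Tbcb and Polr2i. The peak of 5.8 lay inside the long non-coding RNA gene Thap8 (chr7:30280094-30290237), which overlaps the start of Wdr62. Kif11 lay in a stretch of 371 kb without a listed peak, with 3 peaks within 250 kb of its start. Around the 8126 protein-coding genes without a listed peak from 1 kb before to 1 kb after the gene, the median stretch was 424 kb, and that of Kif11 was longer than 47.4% of them and that of Wdr62, 52.7 kb, longer than 8.89%. In that comparison a stretch counts once for each such gene in it. Over all 21525 gaps between neighbouring listed peaks the median was 39.1 kb, and 1334 were at least as long as that of Kif11. The peaks nearest to Kif11 were one of score 33.1 (chr19:37549914-37551603), 128 kb away and inside Exoc6, and one of 6.9 (chr19:37177613-37179090), 197 kb away and inside Cpeb3. Marchf5, Ide and Hhex lie in the same stretch and likewise had no listed peak.

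The numbers in the peak names add to this. They ascend with position on all 21 chromosomes for the 21546 peaks used; the other 46 listed peaks, which stand out of this order, were left out, and none of them lies in the stretches around Wdr62 and Kif11. The 21592 listed peaks make up 66.1% of the highest number, 32646. If the numbers of the longer series follow position too, a missing number between neighbours marks a peak that was numbered but is not in the list used here. The peaks on either side of Wdr62 are numbered 12728 and 12730, so 1 numbered peak is missing somewhere in the 52.7 kb between them, which include the whole gene, and its position and score are unknown. Those on either side of Kif11 are 31483 and 31484, with no number missing. Of the same 8126 genes, 41.8% had no number missing between the flanking peaks, so Kif11 shares this with many genes. Of the 1334 gaps between listed peaks that are at least as long as the one around Kif11, 28.2% had none missing.

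**Figure D3:**
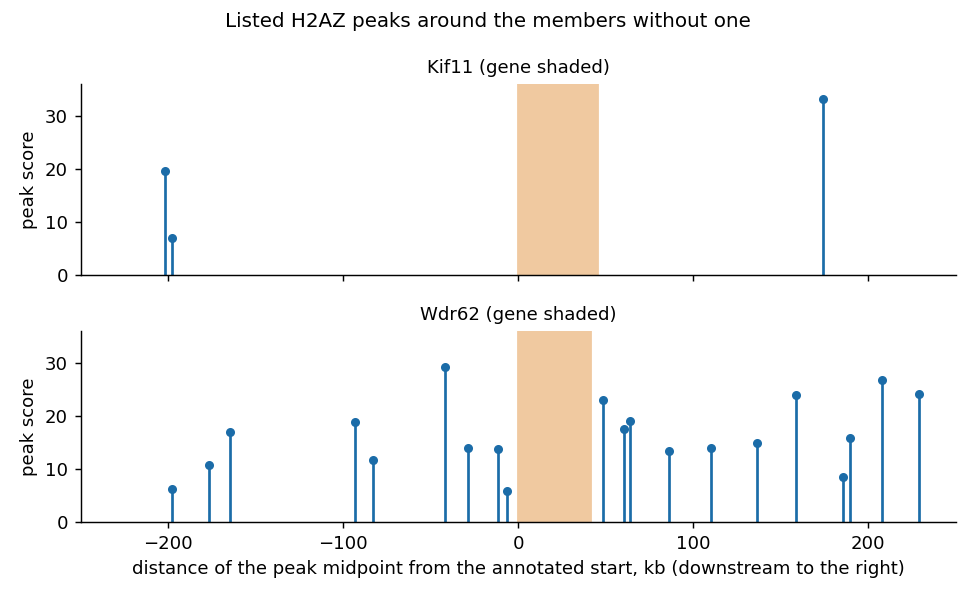
Listed peaks within 250 kb of the annotated starts of Kif11 and Wdr62, by distance of the midpoint from the start in kb and by score in the authors' units, with the gene shaded. Kif11 has 3 peaks in view and none within 128 kb of the gene, and Wdr62 has 20, the closest 4.25 kb from the gene.

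CpG-rich promoters carried peaks far more often than CpG-poor ones, and the members' promoters were mostly CpG-rich. In the 300-base window from 250 bases before to 50 after the start, protein-coding promoters with a peak had a median of 21 CpG dinucleotides, and those without had 4. The 9 members with a sequence had a median of 27, from 14 in Wdr62 and 19 in Aspm to 30 in Nde1. Kif11 had 28 CpG, as many as Cep152 and Cdk5rap2, which had peaks, and it lacked one. Of the 4002 protein-coding promoters with at least 28 CpG, 80.6% had a peak. Wdr62 had the fewest CpG of the 9, and 82.8% of promoters with at least its 14 had a peak. Among promoters with 12 to 15 CpG the share was 79.6%, against 6.04% at 0 to 3 CpG and 29.0% at 4 to 7. Whether CpG content bears on the missing peaks of Wdr62 and Kif11 was not tested.

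**Figure D4:**
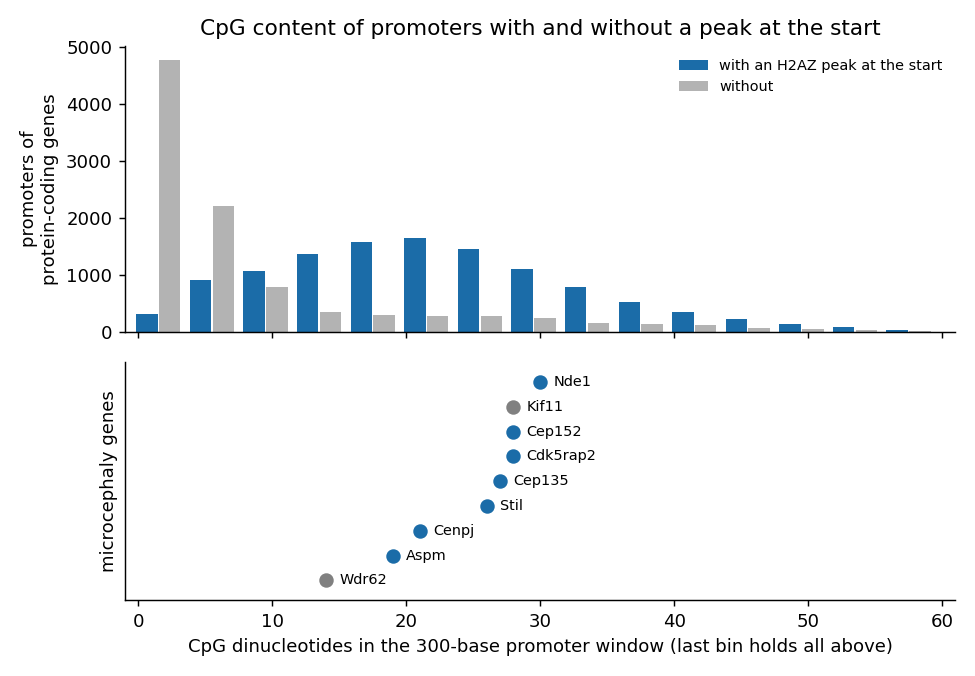
Top, number of protein-coding promoters with (blue) and without (grey) an H2AZ peak within 1 kb of the start, by the number of CpG dinucleotides in the 300-base window. Bottom, the 9 microcephaly genes with a promoter sequence at their own CpG number, blue with and grey without a start peak; Kif11, without a peak, has 28 CpG, as do Cep152 and Cdk5rap2.

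Short sequence motifs were counted on both strands of the same windows. A CCAAT box was found in 7 of 9 members (all but Cdk5rap2 and Cenpj), against 38.2% of 21263 promoters of protein-coding genes, with 3 matches each in Aspm, Wdr62, Stil and Cep152. The cell cycle homology element was found in Aspm, Cdk5rap2 and Kif11, against 16.0% of these promoters; in Kif11 it began 19 bases before the start and a CCAAT box 45 bases before it. An E2F motif (GGCGGGAA or GGCGCGAA) was found in Cep152, against 3.51%, and it overlapped no CCAAT match. The Sp box (GGGCGG) was in all 9, against 46.2%, whereas the Nrf1 motif and the Ets core (CCGGAAGT) were in none, against 1.33 and 5.15%. Among the same promoters the Sp box was present in 66.3% of those with a peak and 22.3% of those without, while the CCAAT box was present in 37.9 and 38.6%. A match is a run of letters, not a bound site.

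Other genes of the same machinery had end peaks at shares from 65.0 to 100%. Each is to be set against the 55.4% of all protein-coding genes and the 67.2% of those in the members' length range. The lists' median gene lengths ran from 33.9 to 50.6 kb, against 17.2 kb over all protein-coding genes. The lowest share, 65.0%, was below the 67.2%. Of 26 other genes linked to microcephaly 22 had one (84.6%, interval 65.1 to 95.6%), led by the kinetochore motor gene Cenpe (score 31.6), Ankle2 (26.55) and the cartwheel gene Sass6 (23.6). The kinase genes Cdk6 and Plk4 and the gamma-tubulin complex gene Tubgcp4 were among the 4 without an end peak. Of 20 centriole duplication genes 13 had one (65.0%, 40.8 to 84.6%), with Cep97 highest at 25.65 and then Sass6 and Poc5 (22.4). Cep44, Cep57 and the centrin gene Cetn3 were among those without, although a peak of 17.9 inside the outermost ends of Cetn3 lay within 1 kb of its annotated start, as in Cenpj. So Plk4, the kinase that Cep152 recruits, lacked a listed end peak while Cep152 had a high one.

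Of 18 genes of the pericentriolar material and gamma-tubulin complexes, 17 had an end peak (94.4%, 72.7 to 99.9%), with Nedd1 at 27.2, Nin at 26.85 and Cep290 at 25.95, and Tubgcp4 without. The Cep290 peak was also at the start of Tmtc3. Of 22 spindle assembly and motor genes, 21 had one (95.5%, 77.2 to 99.9%), led by Cenpe, Tpx2 (27.97) and Kif20b (26.25), and the minus-end motor gene Kifc1 had none. Kif11 was thus without a peak while 21 of these 22 spindle genes had one at either end. At the annotated start, known for 20 of them, 18 had a peak, against 55.3% of all protein-coding genes. Kif2c had an end peak but none at its start. All 15 genes of the Nde1 partners and dynein complex had an end peak (interval 78.2 to 100%), with Bicd2 at 20.6, Dync1li1 at 19.6 and Dync1li2 at 19.4 highest. Their median score was 16.4, below the 23.6 of Nde1 itself, and the medians of the other 4 lists lay between 17.96 and 21.5. The lists share genes, and over the 91 different genes in them 80 had an end peak (87.9%).

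**Figure D5:**
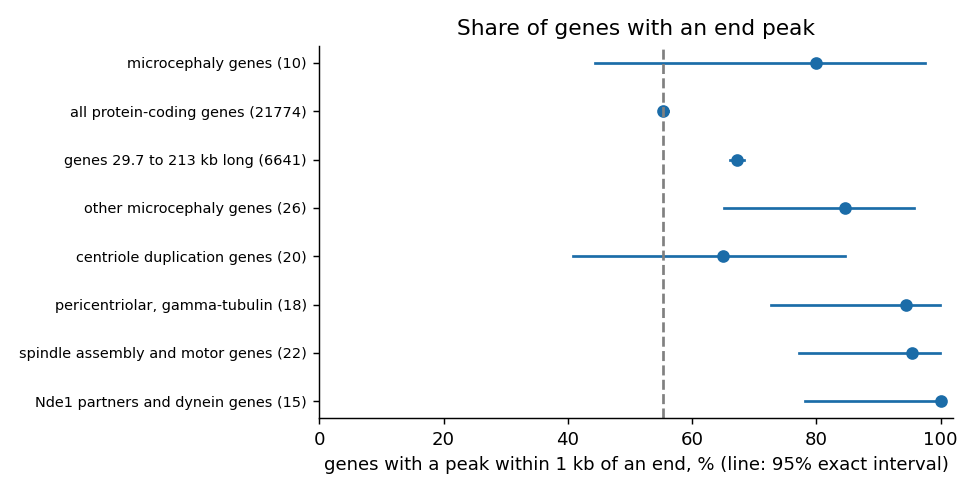
Share of genes with an H2AZ peak within 1 kb of an end, in percent, with the number of genes in brackets and lines for 95% exact binomial intervals. The dashed line is the 55.4% of all protein-coding genes; the 10 microcephaly genes stand at 80.0%, and their interval includes the dashed line.

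The cell type named in the labels cannot be checked by expression in these data, since a peak does not measure it. End peaks were listed for 5 of 6 progenitor marker genes (Vim, Pax6, Nes, Hes5 and Fabp7, not Sox2), 1 of 4 neuronal, 1 of 4 endothelial, 0 of 4 microglial and 0 of 4 erythroid ones, against 55.4% of all protein-coding genes, and with so few genes a list these counts are only a description. Whether other cells contributed to the peaks of the microcephaly genes was not tested.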

How the data were processed

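The authors deposited 1 peak list for the H2AZ library; each line holds a chromosome, start, end, peak name and score. The score was deposited as the authors' own value, and the deposited positions count starts from 0 (printed here from 1). The caller was MACS, going by the peak names in the deposited file (version, settings and control: not given in the sources used here). The submitters' processing notes name CASAVA 1.4, Bowtie2 2, FastQC and the build mm9. Read depth was not analysed here.

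Positions were read as GRCm38, not mm9: 49.7% of the 20860 peaks on chromosomes with starts in the promoter table lay within 1 kb of an annotated RefSeq start (GRCm38.p6), against 7.19 to 7.75% after shifts of 10 or 100 kb. The 46 peaks numbered after the last peak of Y were left out, leaving 21546. A peak was at an end or start if at least 1 bp of it fell within 1 kb of that position, and interior if it lay wholly further inside. The gene table gives outermost ends; strand, starts and promoter sequences came from the RefSeq promoter table, which matched 9 of the 10 genes. Python 3.11.15, numpy 2.4.6, pandas 2.3.3, scipy 1.17.1 and matplotlib 3.10.9 were used, and the overlap code was tested on simulated data. No tests were made. Members, lists and the naming rule (every member; of each list the 3 highest-scoring genes and the first 3 without a peak) were chosen with earlier results of these data known. Alternatives were windows of 500 bp, 2 kb and 5 kb, peak midpoints, all listed peaks, higher-scoring peaks, peaks overlapping the gene, and a narrower interior.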

Additional observations from a re-analysis of the deposited data

How the results depend on the processing

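The count of 8 members with an end peak and of 7 with a start peak held with windows of 500 bp and 2 kb, with peak midpoints, with all listed peaks kept and with only peaks scoring at or above the median of the list; the end count also held with only peaks that overlap the gene. Under the higher-scoring peaks the share with an end peak was 44.4% of all protein-coding genes and 56.2% of those in the members' length range. With windows of 5 kb 9 members had an end peak, against 60.8% of all protein-coding genes, Wdr62 being added with its score of 5.8, the Cenpj score became 18.96, and the median end score became 20.98 in place of 22.1; the wider window takes in more peaks by construction. With the interior begun 5 kb inside each end, 0 members had an interior peak in place of 1, against 9.92% of all protein-coding genes. The Cenpj peak lies nearer its outermost end than 5 kb. No paired analysis was possible because each group has 1 library and no test was made. The list is part of a longer one and its depth is unknown, so a gene without a listed peak may have had a peak outside the list used here.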
